A study of Mus musculus with 18 samples.

Results

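The authors' annotation classed the sites described here as lying inside genes. They are more than 10 kb and up to 100 kb downstream of the gene start that it assigns to them. They were chosen by position alone, from both deposited lists of sites where H3.3 differed, and every site classed as gene body within those bounds was kept. That gave 581 of 2300 listed sites. The comparison of susceptible mice with controls contributed 329 of its 1286 sites (25.6%), in 314 genes, and the comparison of acute stress with controls contributed 252 of its 1014 sites (24.9%), in 246 genes. Every listed site had already passed the authors' test, so the results concern direction, size, position and the genes involved. Sizes and their intervals come from the same counts that placed the sites on the lists. Folds can thus be overstated, and an interval that leaves out no change adds no support.

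The libraries were chromatin immunoprecipitations of H3.3 from the nucleus accumbens of C57Bl/6J mice. Susceptible mice had been defeated repeatedly by aggressors (chronic social defeat), were classed by their social interaction 48 h later, and at day 28 after the last defeat met an aggressor again for 5 min and then lived beside it for 55 min. Acute stress mice were control mice given that same single encounter at the same time point, and control mice were taken directly from the home cage. The labels give 3 ChIP and 3 Input libraries per condition, and tissue of 5 animals was pooled into each. Susceptible mice that did not meet the aggressor again were not among the groups, so the earlier defeat, the selection as susceptible and the re-exposure cannot be told apart. The tissue holds many cell types, and fewer cells of a type and less H3.3 per cell cannot be told apart either. Chromatin was measured, not RNA, so the labelled tissue was not checked against expressed markers.

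H3.3 is the histone H3 variant that cells can place into nucleosomes outside DNA replication, which makes it the main new source of H3 in neurons, since these no longer divide. The chaperone HIRA deposits it at active genes and the chaperones ATRX and DAXX at repeats and telomeres. Along transcribed genes H3.3 replaces nucleosomes that passing RNA polymerase has displaced, and gene bodies also hold intronic enhancers and internal start sites where the variant turns over.

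Only 2 of the 581 sites overlapped a promoter window of the RefSeq table, 250 bases before to 50 after an annotated start (GRCm38.p6, the same build as mm10). Both were lower in susceptible mice than in controls, and their windows are shown because they are the places where a site far from its listed gene start touched another start. In the sequences, given 5′ to 3′ on the gene's strand, capitals mark the bases that the differential site covered.
Ahcyl2: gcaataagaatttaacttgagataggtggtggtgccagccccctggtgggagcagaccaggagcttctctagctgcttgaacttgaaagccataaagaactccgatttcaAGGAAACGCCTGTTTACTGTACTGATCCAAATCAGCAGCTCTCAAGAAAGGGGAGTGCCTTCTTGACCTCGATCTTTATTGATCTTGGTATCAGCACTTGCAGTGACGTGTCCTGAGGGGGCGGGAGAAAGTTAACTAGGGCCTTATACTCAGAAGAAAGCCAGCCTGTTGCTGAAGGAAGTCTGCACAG
Gm35311: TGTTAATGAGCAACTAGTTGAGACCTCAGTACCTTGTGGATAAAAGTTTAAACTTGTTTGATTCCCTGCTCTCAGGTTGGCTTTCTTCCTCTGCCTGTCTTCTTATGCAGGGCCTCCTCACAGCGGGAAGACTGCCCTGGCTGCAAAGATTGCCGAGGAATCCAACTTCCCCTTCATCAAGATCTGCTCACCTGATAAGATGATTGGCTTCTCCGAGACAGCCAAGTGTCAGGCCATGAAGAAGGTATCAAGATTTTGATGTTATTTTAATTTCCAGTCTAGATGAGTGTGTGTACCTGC

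The Ahcyl2 window (chr6:29853491-29853790, plus strand) belongs to a start inside the 143.9 kb Ahcyl2 gene, which encodes a relative of S-adenosylhomocysteine hydrolase. The site (chr6:29853601-29854025) lay 85.4 kb from the start used by the authors and its midpoint 72 bp downstream of this internal one, with 190 bp of overlap. The Gm35311 window (chr11:103858839-103859138, minus strand) was covered over all 300 bp by a site (chr11:103858801-103859275) that the authors assigned to Nsf, whose product takes apart SNARE complexes after vesicle fusion. Gm35311 is a 1.2 kb long non-coding RNA gene inside Nsf. Short promoter motifs and the CRE palindrome were searched on both strands. GGGCGG was found in the Ahcyl2 window and is in 35.7% of the 32851 RefSeq windows. CCAAT was found in the Gm35311 window and is in 37.4% of them. TATAAA, in 13.6% of windows, and TGACGTCA, in 1.79%, were in neither. The Ahcyl2 window had 5 CpG dinucleotides and a GC content of 48.7%, and the Gm35311 window 3 and 45.7%, against medians of 7 and 52.7% over all windows.

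At the Ahcyl2 site the normalised read counts were 3.26, 3.31 and 5.87 in the susceptible libraries, against 15.60 and 19.22 in the control libraries. At the Nsf site they were 6.51, 4.97 and 2.94 in the susceptible libraries, against 19.27 and 17.62 in the control libraries. All 3 susceptible libraries lay below both control libraries at each site. That is a trait of the list, since the groups did not overlap at 99.8% of the listed sites of this comparison. Log2 fold changes in the authors' deposited table were -2.07 at Ahcyl2 and -1.94 at Nsf, and exact counting intervals put the pooled reads 4.48-fold (95% interval 2.25 to 9.87) and 3.8-fold (2.01 to 7.81) lower in susceptible mice. The enrichment ratios in the authors' deposited table, whose denominator is not stated, were 1.41 in susceptible mice and 0.65 in controls at Ahcyl2, so there the ratio went the other way.

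All values rest on few reads. The cells of the susceptible table hold 3 susceptible and 2 control libraries, and those of the acute one 2 acute stress and 2 control libraries, and the sources used here do not say which labelled library stands at which position. Values of a library were whole multiples of 1 read, worth 1.63, 0.828 and 1.47 in the susceptible libraries and 0.918 and 0.534 in their controls, while the acute stress libraries had 0.951 and 1.43, against 1.08 and 0.657 in their controls. At the 319 susceptible lower sites the median was 6 susceptible reads (range 0 to 17) against 36 control reads (29 to 67). At the 10 susceptible higher sites it was 30 (24 to 46) against 8 (4 to 17). At the 115 acute lower sites it was 4 acute stress reads (2 to 23) against 36 control reads (29 to 103), and at the 137 acute higher sites 26 (19 to 37) against 8 (3 to 15). The lists have a floor on the higher of the 2 groups. In both comparisons no lower site had under 11 reads in the first or under 18 in the second control library, and no acute higher site had under 11 and 8 reads in the acute stress libraries. Intervals above and below cover counting error only, not the selection of sites by the same reads, and folds near the floor are bounded by it.

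Nearly all of these sites held less H3.3 in susceptible mice than in controls. Of the 329, 319 were lower and 10 higher, so that 97.0% were lower (Wilson 95% interval 94.5 to 98.3%), beside 97.6% lower and 2.41% higher among all listed sites of that comparison. After acute stress both directions were common. Of the 252, 115 were lower and 137 higher, so that 45.6% were lower (39.6 to 51.8%), beside 46.6% lower and 53.4% higher among all its listed sites. The share among the members thus stood at the background in each comparison. The libraries of the groups did not overlap at any of the 329 susceptible and 252 acute sites, beside 99.8% and 100% of listed sites, which the floor on the higher group favours.

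**Figure D1:**
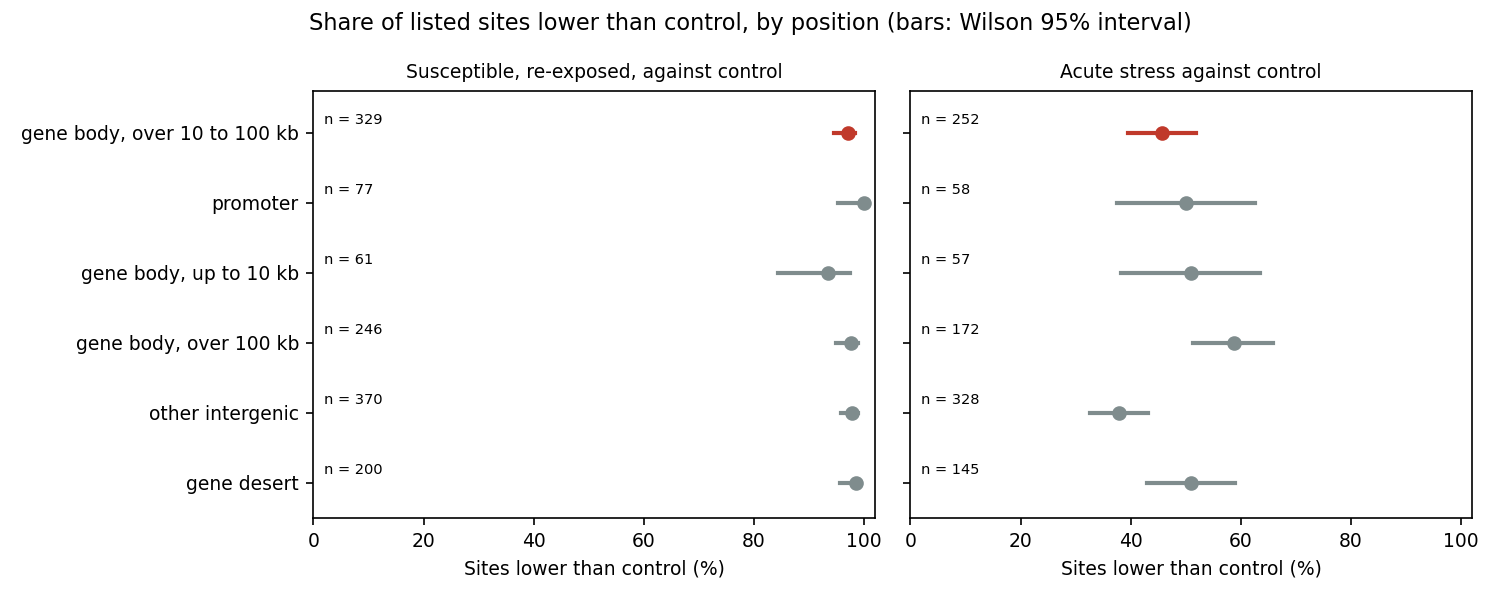
Share of listed sites that were lower than control (x axis, percent), by position class (rows), for susceptible re-exposed mice (left) and acute stress (right). Points are shares, bars Wilson 95% intervals, and n the number of sites. The gene body sites over 10 to 100 kb (red) sit at 97.0% in susceptible mice and 45.6% after acute stress, and deeper gene body sites at 97.6% and 58.7%.

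The acute split differed most from that of deeper gene body sites. Beyond 100 kb, 101 acute sites were lower and 71 higher (58.7% lower), so the share among the members was 13.1 percentage points smaller (two-sided Fisher exact test, p = 0.01, adjusted p = 0.0602 over 6 tests), which missed the threshold after adjustment. Within the first 10 kb 29 were lower and 28 higher (50.9%), and over all other listed acute sites 358 and 404 (47.0%). In susceptible mice the lower share was 93.4% within 10 kb (57 lower, 4 higher), 97.6% beyond 100 kb (240 and 6) and 97.8% over all other listed sites (936 and 21). For these 5 other contrasts the smallest adjusted p was 0.747 (Fisher exact tests). Sites share their libraries, so these tests cover the number of sites only.

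By distance, the susceptible sites were lower in each bin. There were 94 lower and 4 higher sites over 10 to 25 kb, 113 and 3 over 25 to 50 kb, and 112 and 3 over 50 to 100 kb. The acute sites had 34 lower and 38 higher over 10 to 25 kb, 39 and 62 over 25 to 50 kb, and 42 and 37 over 50 to 100 kb. Their lower share was thus 47.2%, 38.6% and 53.2%, with the fewest lower sites relative to higher ones in the middle bin. By chromosome, lower sites were the majority on all 19 autosomes in susceptible mice. After acute stress higher sites were the majority on 13 autosomes, lower sites on 4, and 2 were tied.

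**Figure D2:**
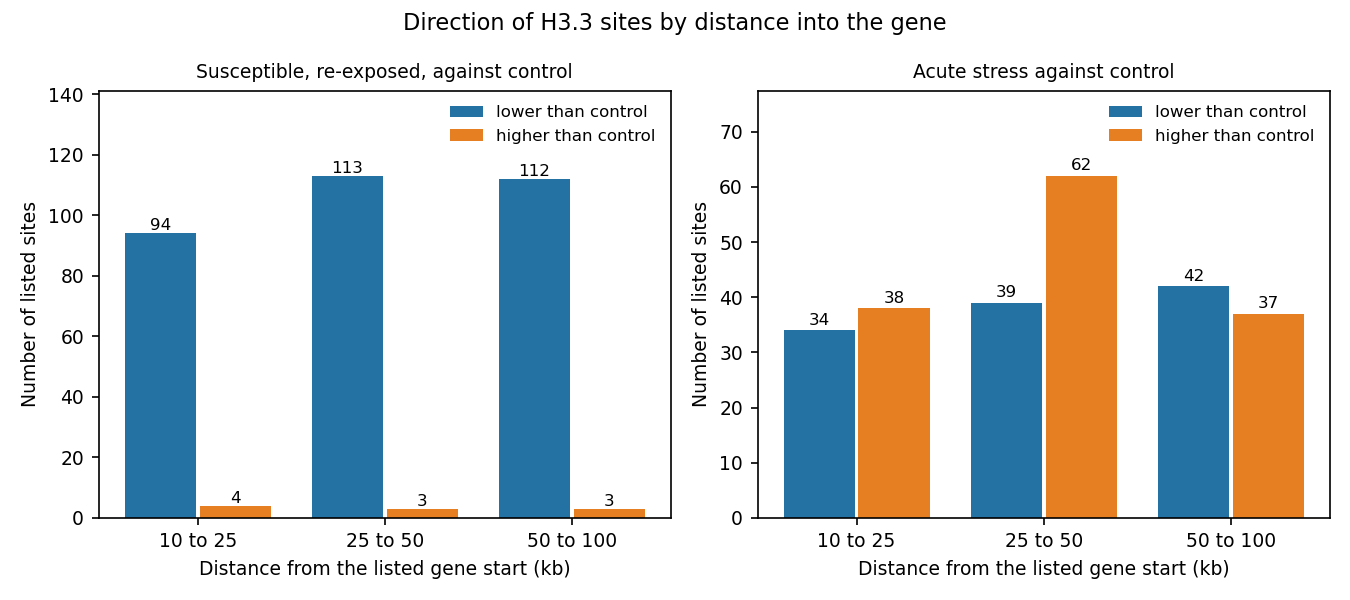
Number of listed sites lower (blue) and higher (orange) than control, by distance from the listed gene start (x axis, kb), in susceptible re-exposed mice (left) and after acute stress (right). Lower sites outnumber higher ones in every susceptible bin, and in the acute comparison only from 50 to 100 kb (42 against 37).

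The genes that carried these sites were long. The median gene length was 97.2 kb for susceptible lower, 90.6 kb for susceptible higher, 100 kb for acute lower and 80.6 kb for acute higher sites. The site lay at a median of 42.0%, 29.6%, 39.1% and 49.8% of the gene's length. The sites themselves were short, with medians of 275 to 300 bp and a range of 250 to 650 bp. The gene carrying a site was coded on the plus strand at 157 and on the minus strand at 172 susceptible sites, and at 141 and 111 acute sites. Of the 329 susceptible sites 322 lay within the RefSeq gene of the listed name, and of the 252 acute sites 244 did. No RefSeq gene was found at 4 susceptible and 7 acute sites. RefSeq placed a second gene at 17 susceptible and 16 acute sites, a long non-coding RNA gene at 12 and 8 of them. Exon and intron positions were not used here.

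The listed distance runs from the start of 1 transcript. Measured from the outermost RefSeq start, 294 of 329 susceptible and 225 of 252 acute sites stayed within 10 to 100 kb, 35 and 27 lay beyond 100 kb, and 0 came within 10 kb. Names were also unreliable in places. The susceptible site listed under Adgra2 lay in RefSeq's Adgra3, and 3 susceptible sites and 1 acute site carried names of microRNAs whose RefSeq hairpins are on other chromosomes or, for a numbered copy, were not matched. At the bounds of the rule, Pstpip1 at 9999 bp was left out with 2.89 ± 0.392 normalised counts (SD, n = 3) in susceptible mice against 12.1 ± 0.247 (SD, n = 2) in controls, and Zeb2 at 10464 bp was kept with 3.39 ± 1.53 against 13.7 ± 1.32. Nars2 at 99798 bp was kept with 4.97 ± 1.48 in susceptible mice against 17.7 ± 0.898 in controls, and Chn1 at 100708 bp was left out with 1.87 ± 2.10 against 13.0 ± 1.05. In the acute comparison, Ipo8 at 9867 bp (left out), Schip1 at 10011 bp (kept), Wnk2 at 99403 bp (kept) and Gigyf2 at 100465 bp (left out) were all lower too, with acute stress means of 3.33, 4.04, 1.43 and 1.67 against control means of 17.1, 16.5, 12.2 and 14.0.

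Group means at the susceptible lower sites had medians of 2.2 normalised counts in susceptible mice, against 12.1 in controls, and the median log2 fold change in the authors' deposited table was -2.41, with finite values from -4.39 to -1.61. Other listed lower sites had a median of -2.42 in the authors' deposited table. At 133 of the 319 lower sites at least 1 susceptible library held no read. The exact binomial counting test passed 318 lower and 8 higher members at 0.0001. Of all listed sites 97.1% were lower and passed it, 2.02% were higher and passed it, and 99.1% passed in either direction. Leaving out 1 library left 44 (without the second susceptible library) to 123 lower members past it (without the first), and 1 to 5 higher ones. Scaling the libraries to equal medians over the other listed sites, of which 97.8% were lower, gave the lower members a median log2 fold change of 0.3, above 0, as that choice sets listed sites to no change.

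The susceptible lower site with the smallest p carried the name Mir3473a#3 and lay within Dip2b, a gene of the disco-interacting protein family (mm10, chr15:100118951-100119200, 69.0 kb in). It held 0 reads in each of the 3 susceptible libraries, against 10.09 and 9.61 normalised counts in the control libraries, which are 11 and 18 reads. With the susceptible group set at a chosen floor of 3 reads over its libraries, the fold was 8.17, lower in susceptible mice. That value is no lower bound, since the exact 95% interval of the pooled reads, computed as at the other sites, begins at 6.23-fold. The counting test gave an exact p of 2.45e-08 for reads pooled over libraries. The site was picked by its p from the same reads, so this adds no support. The control counts at this site equal the smallest that any lower site of the comparison had.

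Cmtm4, which encodes a tetraspan membrane protein that in human cells helps keep PD-L1 at the surface, carried a lower site 32.8 kb in (chr8:104362851-104363125). Its counts were 0, 1.66 and 0 in the susceptible libraries, against 11.93 and 11.21 in the control libraries. Esr2, the gene of estrogen receptor beta, had 0, 1.66 and 0 in the susceptible libraries, against 11.93 and 10.14 in the control libraries (chr12:76149001-76149250, 28.1 kb in). In both genes 2 of 3 susceptible libraries held no read and the control libraries lay close together. The 2 susceptible against 34 control reads at Cmtm4 gave a pooled fold of 14.4 (exact 95% interval 3.68 to 123), and the 2 against 32 at Esr2 a fold of 13.5 (3.45 to 116), both lower in susceptible mice. In the authors' deposited table their log2 fold changes were -4.39 and -4.32.

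Pard3, a scaffold of the cell polarity complex, carried the highest control counts among the 8 lower sites with the smallest p. Its site spans 500 bp, the greatest length among the susceptible lower sites, and counts are not scaled to length. The site (chr8:127131226-127131725) had 3.26, 6.62 and 4.40 in the susceptible libraries, against 22.02 and 19.75 in the control libraries, on 13 susceptible and 61 control reads. A second lower site, 200 kb away and measured from the start of a shorter transcript, had 9.77, 4.14 and 1.47 in the susceptible libraries, against 17.43 and 16.55 in the control libraries. The spread among susceptible libraries was wide at the second site (5.13 ± 4.24, SD, n = 3). The fold of pooled reads was 3.96 (exact 95% interval 2.16 to 7.87) at the first and 3.52 (1.85 to 7.26) at the second, both lower in susceptible mice. Slc35f1, a solute carrier gene, and Klhl1, which encodes an actin-binding kelch protein of neurons, were also among these 8. Slc35f1 averaged 1.36 ± 1.69 in susceptible mice against 12.8 ± 1.42 in controls (SD, n = 3 and 2), and Klhl1 averaged 1.26 ± 1.52 and 12.1 ± 0.247.

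**Figure D3:**
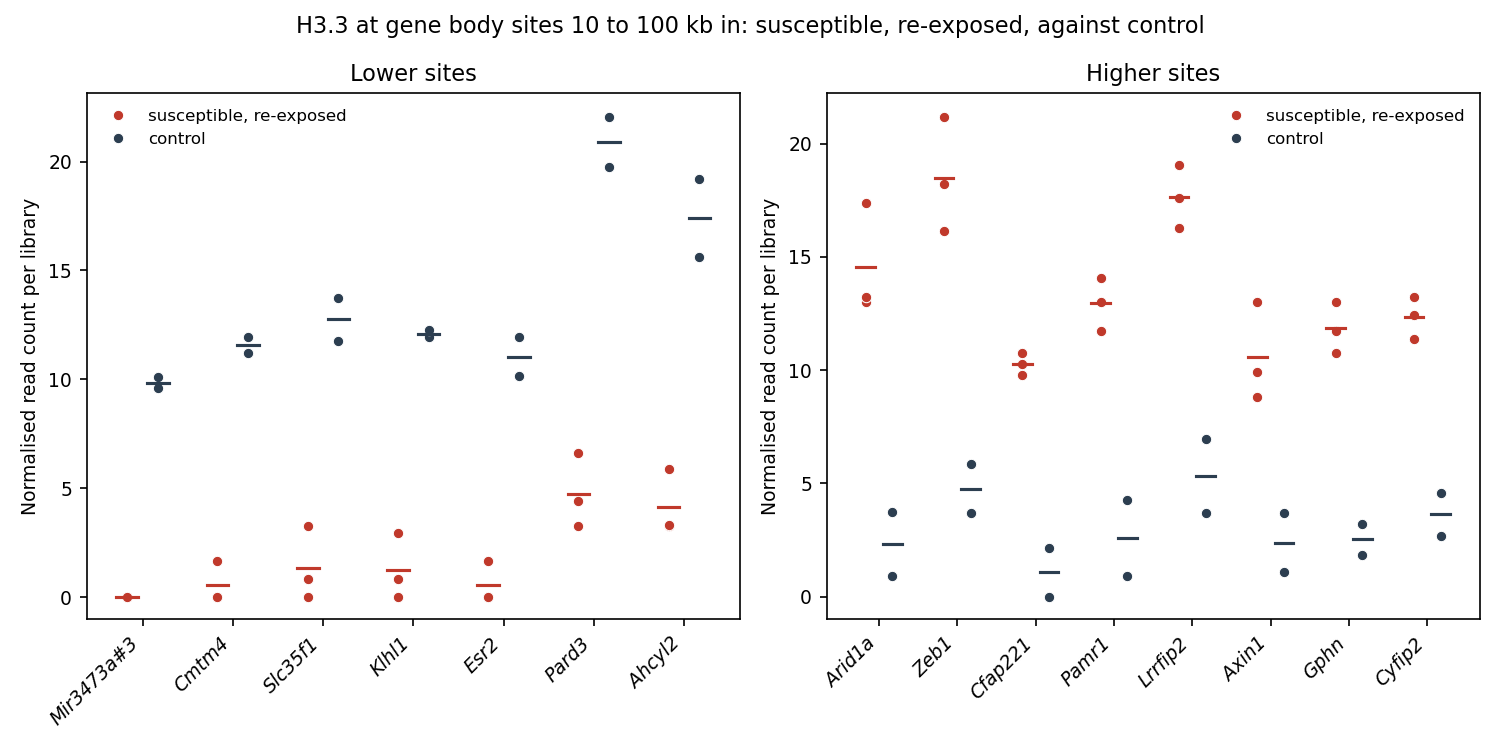
Normalised read count (y axis) of each library at 7 of the 8 lower sites (left) and at the 8 higher sites (right) with the smallest p in the susceptible comparison, 1 gene per position on the x axis. Points are libraries, susceptible (red) left of control (dark), and lines are group means. At Mir3473a#3 all 3 susceptible libraries are at 0, and at Pard3 they reach 6.62 against 19.75 and 22.02 in controls.

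Of all RefSeq protein-coding genes over 10 kb, 286 of 13958 (2.05%) carried a susceptible lower site of this kind, and 10 (0.0716%) a susceptible higher one. Counts for gene lists are likewise out of the list's members over 10 kb, since shorter genes cannot hold such a site. Among genes of synaptic adhesion, the proteins that join the membranes of synapses, 7 of 64 had a lower one, namely Adgrl2, Cntn3, Ctnna2, Nrxn3, Ntm, Pcdh15 and Pcdh9. The median log2 fold change of their 8 sites in the authors' deposited table was -2.43, beside -2.42 for all coding genes. Many of these genes are very long. Neither this share nor that of any list below was set against genes of like length. All lists were written with earlier results of these data known. Ntm, which encodes the adhesion protein neurotrimin, had 1.63, 4.14 and 0 in the susceptible libraries, against 14.68 and 12.28 in the control libraries. Pcdh9, a protocadherin, had 2 lower sites. At the first it had 1.63, 1.66 and 0 in the susceptible libraries, against 11.01 and 9.61 in the control libraries. The neurexin gene Nrxn3, whose product is a presynaptic receptor for neuroligins, had 0, 6.62 and 2.94 in the susceptible libraries, against 14.68 and 13.88 in the control libraries. Susceptible libraries stayed under the controls at all of these sites, as at every susceptible lower member, and at Nrxn3 they ranged widely.

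Genes of transmitter release had a lower site in 3 of 47. Besides Nsf these were Rims1, an active zone scaffold, and Rab3c, a GTPase of synaptic vesicles. Rims1 averaged 1.74 ± 2.34 in susceptible mice against 10.6 ± 0.615 in controls (SD, n = 3 and 2), and Rab3c averaged 2.83 ± 1.82 and 12.8 ± 1.42. On the receiving side, 1 of 30 postsynaptic scaffold and kinase genes (Dlgap1) had a lower site. Dlgap1, which binds PSD-95, averaged 1.92 ± 2.09 in susceptible mice against 12.1 ± 0.247 in controls (SD, n = 3 and 2).

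Among voltage-gated channels and their partners 5 of 50 genes had a lower site, and 2 of them are parts of the L-type calcium channel. Cacna1c, its pore subunit, had 2 sites 434 kb apart. The site at chr6:118662901-118663200 had 6.51, 0.83 and 0 in the susceptible libraries, against 11.01 and 11.75 in the control libraries. The site at chr6:119097701-119097950 had 3.26, 1.66 and 1.47 in the susceptible libraries, against 11.01 and 10.14 in the control libraries. Cacnb2, a beta subunit of such channels, averaged 2.34 ± 1.32 in susceptible mice against 12.5 ± 1.80 in controls (SD, n = 3 and 2). The potassium channel genes Kcnn3 and Kcnt2 and the channel partner Kcnip4 had susceptible means of 4.77, 3.38 and 2.40 against control means of 17.5, 13.2 and 10.9. No axon guidance gene of 43 had a susceptible site.

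Of the 44 genes for dopamine signalling, cAMP and medium spiny neurons, the main cell type of this region, 5 had a lower site. Gnal, whose product couples striatal dopamine receptors to adenylyl cyclase, had 3.26, 3.31 and 2.94 in the susceptible libraries, against 13.76 and 13.35 in the control libraries. Pde1c, a phosphodiesterase that breaks down cyclic nucleotides, had 1.63, 1.66 and 1.47 in the susceptible libraries, against 10.09 and 9.61 in the control libraries. Both had tight groups, and Pde1c stood on the floor of the list with 4 susceptible and 29 control reads. Adcy3, an adenylyl cyclase, averaged 1.38 ± 2.39 in susceptible mice against 11.4 ± 0.523 in controls (SD, n = 3 and 2). Prkce, a protein kinase C, and Ebf1, a transcription factor of striatal development, had susceptible means of 2.83 and 2.94 against control means of 11.8 and 12.3.

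Stress hormone signalling contributed 1 of 13 genes with a lower site. Nr3c1, the glucocorticoid receptor gene (chr18:39437551-39437900, 49.5 kb in), had 3.26, 4.14 and 2.94 in the susceptible libraries, against 22.02 and 12.81 in the control libraries. The control libraries differed widely (17.4 ± 6.51, SD, n = 2), and both exceeded every susceptible library, as at every susceptible lower member. The fold of pooled reads was 4.51, lower in susceptible mice (exact 95% interval 2.19 to 10.4). Of 42 genes of growth factor signalling 3 had a lower site. Ntrk2, the BDNF receptor gene, averaged 1.10 ± 1.91 in susceptible mice against 11.3 ± 0.884 in controls (SD, n = 3 and 2). Pdgfd, a PDGF ligand, averaged 1.37 ± 1.26 and 13.4 ± 3.10, and Fgf12, an intracellular FGF homologue that binds sodium channels, 2.67 ± 1.92 and 11.5 ± 1.92.

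Regulators of small GTPases, which steer the actin cytoskeleton, had a lower site in 6 of 83 genes. Sipa1l3, a Rap GTPase activator protein, had 0, 2.48 and 0 in the susceptible libraries, against 10.09 and 10.14 in the control libraries. Trio, a guanine nucleotide exchange factor, had 3.26, 4.14 and 0 in the susceptible libraries, against 15.60 and 12.28 in the control libraries. Arhgap32 averaged 1.32 ± 1.25 in susceptible mice against 11.7 ± 2.93 in controls (SD, n = 3 and 2), and Arhgap24, Asap1 and Rasgrf2 had susceptible means of 1.80, 2.39 and 4.61 against control means of 9.85, 11.1 and 17.7.

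Chromatin regulators had a lower site in 7 of 86 genes and a higher site in 1. Kdm3b, a histone H3 lysine 9 demethylase, had 3.26, 3.31 and 4.40 in the susceptible libraries, against 20.19 and 14.95 in the control libraries. Smarca4, the BRG1 ATPase of SWI/SNF remodellers, had 6.51, 3.31 and 2.94 in the susceptible libraries, against 14.68 and 16.02 in the control libraries. Asxl3, a Polycomb-associated gene, had 2 lower sites 7.72 kb apart with susceptible means of 2.08 and 1.53 against control means of 11.2 and 10.6. Dnmt3b, a DNA methyltransferase, and Ash1l, a histone methyltransferase, had susceptible means of 1.32 and 2.45 against control means of 9.85 and 11.3. None of 10 genes for H3.3 and its chaperones had a member site in either comparison, nor did any of 6 immediate early genes.

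Genes of RNA binding had a lower site in 2 of 48, in Ptbp2, a neuronal splicing regulator, and Tnrc6c, a partner of Argonaute. Their susceptible means were 2.08 and 1.86, against control means of 10.4 and 10.6. Of 14 astrocyte markers Aldh1l1 and Slc4a4 had 1 lower site each, with susceptible means of 2.45 and 1.64 against control means of 12 and 10.1. Of 13 microglia markers Fli1 had 1 (1.36 ± 1.69, n = 3, against 11.2 ± 2.29, n = 2, mean ± SD), and of 17 endothelial or mural markers Ebf1 had 1. The 19 oligodendrocyte, 6 precursor and 10 interneuron markers and the 6 housekeeping genes had none in either comparison.

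Several genes held more than 1 member site. In the susceptible comparison 14 genes did, and 13 of them had lower sites only. Nptn, which encodes the adhesion protein neuroplastin, had 3 lower sites over 35.8 kb, with susceptible means of 2.62, 1.32 and 2.47 against control means of 12.1, 9.85 and 12.6. Vsnl1, the calcium sensor visinin-like 1, had 2 sites 4.6 kb apart with susceptible means of 3.6 and 3.45 against control means of 14.1 and 13.9. Pairs were also in Dok5, Kcnmb2, Lama3, Rc3h2, Sec24d and 1700021K19Rik, beside Pard3, Cacna1c, Pcdh9 and Asxl3 above. Arid1a was the exception and carried sites in both directions.

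The susceptible higher sites were 10, each in another gene. Group means had medians of 12.1 normalised counts in susceptible mice, against 2.45 in controls, and log2 fold changes of 1.73 to 3.27 stood in the authors' deposited table. Arid1a, a SWI/SNF subunit, had the smallest p among them (chr4:133738101-133738450, 15.3 kb in). The higher site had 13.02, 17.38 and 13.21 in the susceptible libraries, against 0.92 and 3.74 in the control libraries. The lower site of the same gene, 30.8 kb further in, had 1.63, 1.66 and 1.47 in the susceptible libraries, against 10.09 and 10.68 in the control libraries. Libraries of each group lay close together at both positions, in opposite order. The pooled folds were 5.62 higher in susceptible mice at the first and 6.55 lower (exact 95% interval 2.32 to 25.5) at the second.

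Cfap221, a gene of motile cilia, had 9.77, 10.76 and 10.28 in the susceptible libraries, against 0 and 2.14 in the control libraries. Zeb1, a zinc finger repressor, had 21.16, 18.21 and 16.15 in the susceptible libraries, against 3.67 and 5.87 in the control libraries. Gphn, whose product gephyrin anchors GABA and glycine receptors, had 13.02, 10.76 and 11.74 in the susceptible libraries, against 1.84 and 3.20 in the control libraries. The susceptible libraries stood above the controls at all 3 sites, as at every susceptible higher member. Axin1, a scaffold of the complex that degrades beta-catenin, averaged 10.6 ± 2.18 in susceptible mice against 2.37 ± 1.84 in controls (SD, n = 3 and 2). Pamr1, Lrrfip2, Slc36a1 and Ptprb, the last a receptor phosphatase of endothelial cells, had susceptible means of 12.9, 17.6, 9.72 and 11.1 against control means of 2.59, 5.30, 1.99 and 2.25. Cyfip2, a subunit of the WAVE actin complex, averaged 12.3 ± 0.913 and 3.63 ± 1.36. Cyfip2 missed the counting test (exact p = 0.000126), which 8 of the 10 higher sites passed.

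After acute stress the 115 lower sites had median group means of 2.38 normalised counts in acute stress mice and 14.6 in controls, and the 137 higher sites 14.8 and 3.27. The median log2 fold changes in the authors' deposited table were -2.57 (range -3.68 to -1.71) and 2.18 (1.64 to 3.73), beside -2.64 and 2.22 for the other listed sites. The counting test passed 106 of the 115 lower and 85 of the 137 higher members. Of all listed sites 44.8% were lower and passed it, 36.2% were higher and passed it, and 81.0% passed in either direction. Lower sites were then the majority, at 55.5%, and among members with at least 40 reads at 65.3% (64 lower, 34 higher). Relative depth summed to 2.45 over the control and 1.75 over the acute stress libraries. At equal normalised levels a lower site thus holds more reads than a higher one, so neither setting treats the directions alike. The share over all listed sites with at least 40 reads was not taken. Leaving out 1 library left 3 lower and 9 higher members past the test (without the first acute stress library) to 36 and 14 (without the first control library). The lower share then ran from 25% without the first acute stress library to 95.5% without the second control library. Higher sites rested on fewer reads in all (median 34 per site, against 40 at lower sites).

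Btaf1, whose product strips TATA-binding protein from DNA, had the smallest p of the acute lower sites and the highest counts of all members (chr19:36942901-36943550, 17.1 kb in). The site spans 650 bp, no member was longer, and counts are not scaled to length. Btaf1 had 13.31 and 12.86 in the acute stress libraries, against 45.42 and 40.08 in the control libraries. A second lower site 26.6 kb further in had 10.46 and 4.29 in the acute stress libraries, against 28.12 and 22.34 in the control libraries. Libraries of the groups did not overlap at either site, as at every member. The 23 acute stress and 103 control reads of the first site gave a fold of 3.21, lower in acute stress mice (exact 95% interval 2.02 to 5.28).

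Rabgap1 and Tiam1 regulate small GTPases, as an activator of Rab GTP hydrolysis and as a Rac exchange factor. Rabgap1 had 3.8 and 4.29 in the acute stress libraries, against 23.79 and 19.71 in the control libraries. Tiam1 had 3.8 and 4.29 in the acute stress libraries, against 20.55 and 19.71 in the control libraries. Pooled folds were 5.32 (exact 95% interval 2.41 to 13.9) and 5.01 (2.26 to 13.1), lower in acute stress mice. With Arhgef12 and Tbc1d4, 4 of the 83 GTPase regulators had an acute lower site and none a higher one, beside 106 (0.759%) and 126 (0.903%) of all 13958 coding genes over 10 kb. The Arhgef12 site missed the counting test (exact p = 0.000149).

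Sepsecs, an enzyme of selenocysteine synthesis, had 0.95 and 1.43 in the acute stress libraries, against 15.14 and 12.48 in the control libraries, on 2 and 33 reads. Dync1h1, the heavy chain of cytoplasmic dynein, had 2.85 and 1.43 in the acute stress libraries, against 17.30 and 15.11 in the control libraries. Cacnb2 had 1.90 and 1.43 in the acute stress libraries, against 16.22 and 13.8 in the control libraries. Prr16 and 4930542D17Rik had acute stress means of 2.61 and 1.90 against control means of 17.9 and 15.9. In these 5 genes no acute stress library exceeded 3.8. Log2 fold changes in the authors' deposited table ran from -3.54 at Sepsecs to -2.78 at Prr16.

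Other acute lower sites fell in 2 of 30 postsynaptic genes, 3 of 48 RNA binding genes, 2 of 42 growth factor genes and 2 of 44 dopamine, cAMP and medium spiny neuron genes. Dlg2, the scaffold PSD-93, and Grip1, which binds AMPA receptors, had acute stress means of 3.56 and 3.8 against control means of 16.3 and 16.5, and both missed the counting test (exact p = 0.000149). Rbfox2, Khdrbs3 and Srrm4, regulators of neuronal splicing, had acute stress means of 2.85, 2.14 and 2.14 against control means of 14.3, 13.7 and 14.4. Foxp2 and Meis1, both transcription factor genes, had 1.90 and 1.67 against 14.1 and 11.9. Egfr, the epidermal growth factor receptor gene, averaged 2.62 ± 2.36 in acute stress mice and 13.9 ± 0.184 in controls (SD, n = 2 each).

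Among the acute higher sites A1cf, a cofactor of mRNA editing, had the smallest p (chr19:31880051-31880300, 11.4 kb in). It had 17.11 and 11.44 in the acute stress libraries, against 2.16 and 1.31 in the control libraries. Atp8b4, a lipid flippase gene, had 13.31 and 12.86 in the acute stress libraries, against 0 and 1.97 in the control libraries. The acute stress libraries were higher in both, with pooled folds of 9.08 (exact 95% interval 3.15 to 35.8) and 10.7 (3.24 to 55.7). Fmo5, a flavin monooxygenase, had 19.01 and 24.30 in the acute stress libraries, against 4.33 and 5.26 in the control libraries. Bag3, a co-chaperone of Hsp70 in protein quality control, had 18.06 and 14.29 in the acute stress libraries, against 4.33 and 2.63 in the control libraries. Eya4, a transcriptional coactivator with phosphatase activity, averaged 14.5 ± 1.70 in acute stress mice and 2.60 ± 0.898 in controls (SD, n = 2 each). Slc38a6, Epb41l4b and Wwox had acute stress means of 20.2, 16.9 and 16.9 against control means of 5.00, 3.59 and 4.02.

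**Figure D4:**
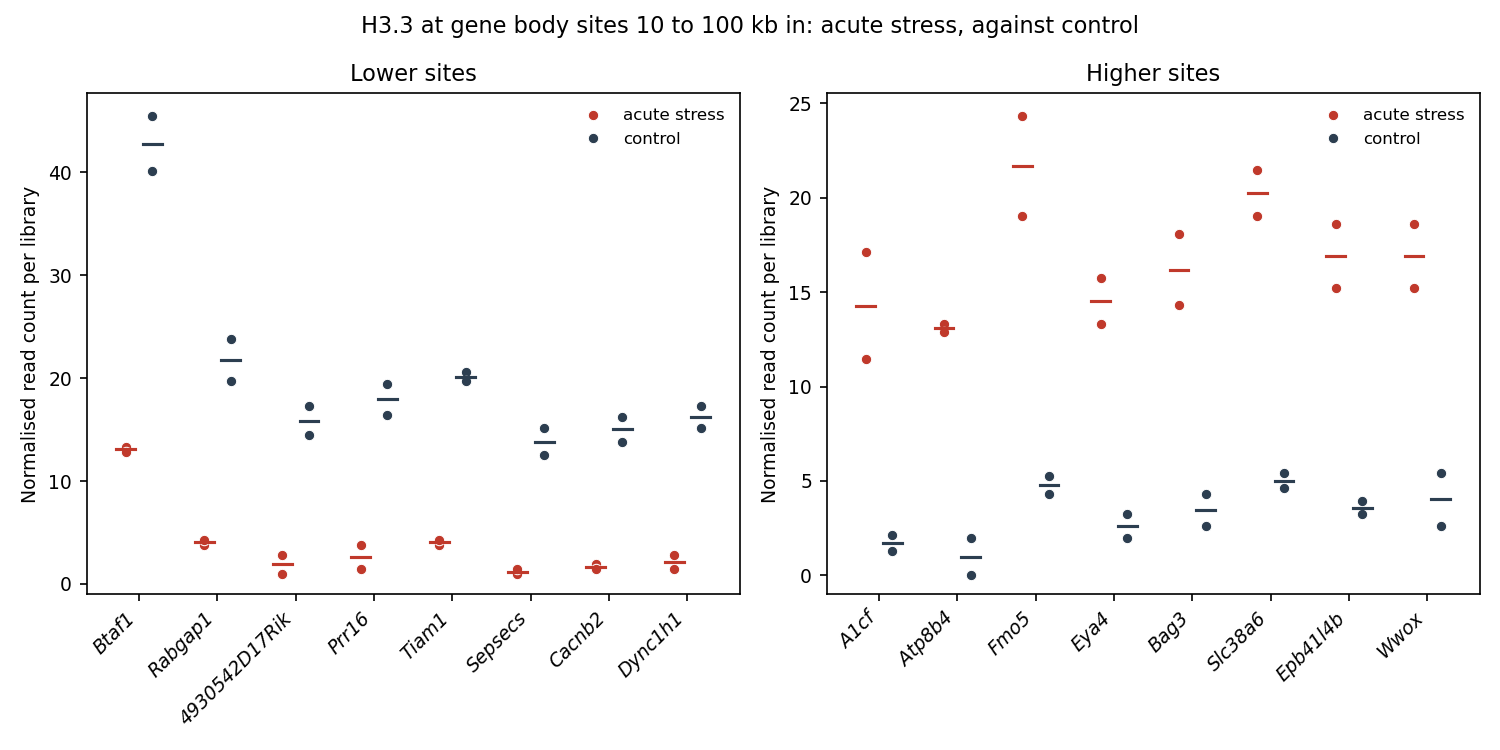
Normalised read count (y axis) of each library at the 8 lower (left) and 8 higher (right) sites with the smallest p in the acute comparison, 1 gene per position on the x axis. Points are libraries, acute stress (red) left of control (dark), and lines are group means. Btaf1, at a 650 bp site, has the highest control counts, with 13.31 and 12.86 after acute stress against 45.42 and 40.08 in controls. Counts are not scaled to length.

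The acute higher sites included 3 of 43 axon guidance genes, all of them ephrin type A receptors, beside 126 (0.903%) of all 13958 coding genes over 10 kb. These 3 genes span 147.9 to 952 kb, and the share was not set against genes of like length. The list was written with earlier results of these data known. Epha4 had 19.01 and 22.87 in the acute stress libraries, against 5.41 and 6.57 in the control libraries. Epha3 and Epha6 had acute stress means of 15.2 and 16.7 against control means of 4.56 and 4.04, and missed the counting test (exact p = 0.000161 and 0.000143). The receptor gene of corticotropin-releasing hormone, Crhr1, was the single stress hormone gene of 13 with an acute site. It had 11.41 and 15.72 in the acute stress libraries, against 2.16 and 3.29 in the control libraries, and missed the counting test (exact p = 0.00013). Grin2b, an NMDA receptor subunit gene, had 13.31 and 14.29 in the acute stress libraries, against 2.16 and 3.29 in the control libraries.

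Synaptic adhesion genes had 2 of 64 with a higher site, Cdh4 and Dscaml1, and 1 with a lower site, Adgrl2. Cdh4, which encodes R-cadherin, averaged 16.4 ± 3.05 in acute stress mice and 3.05 ± 1.26 in controls (SD, n = 2 each). Of channel genes Scn1a, a sodium channel, and Kcnq1, a potassium channel, had acute stress means of 14.8 and 13.1 against control means of 3.69 and 2.73, and Kcnq1 missed the counting test (exact p = 0.00013). Synj1, the phosphatase synaptojanin of vesicle recycling, averaged 18.8 ± 3.73 and 4.58 ± 1.89. Of 86 chromatin regulators Auts2 and Epc1 had a higher site, with acute stress means of 12.4 and 19.3 against 1.65 and 5.54 in controls. Mbnl1, a splicing regulator, and Tnrc6b, a partner of Argonaute, had acute stress means of 16.6 and 11.4 against control means of 5.21 and 2.06, and both missed the counting test (exact p = 0.000122 and 0.000135).

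In the acute comparison 6 genes had 2 member sites. Ank2, the neuronal scaffold ankyrin B, had 2 higher sites 6.80 kb apart, with acute stress means of 15.7 and 12.4 against control means of 3.71 and 2.19. The second missed the counting test (exact p = 0.000138), as did 1 site of Frmd4a (0.000118) and 1 of Neb (0.000149). Frmd4a had 2 higher sites as well, and Btaf1, Neb and Ankrd33b had 2 lower sites each. Gpr39, a zinc-sensing receptor gene, had a site in each direction 17.3 kb apart. Its lower site averaged 2.14 ± 1.0 in acute stress mice and 13.2 ± 1.80 in controls, and its higher site 15.7 ± 1.99 and 4.35 ± 1.5 (SD, n = 2 each).

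A few genes with a member also had a listed promoter site. In the susceptible comparison these were Ttc37, Chsy3, Gdap1l1 and Large, lower at both places, and in the acute comparison Btaf1. Large, a glycosyltransferase of dystroglycan, had 3.67 ± 1.79 (SD, n = 3) in susceptible mice against 15.9 ± 2.14 (SD, n = 2) in controls at the promoter, and 4.15 ± 1.49 against 15.3 ± 0.948 at the site 74.6 kb in. Btaf1 had 3.33 ± 3.37 in acute stress mice against 15.7 ± 0.785 in controls (SD, n = 2 each) at its promoter.

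Both comparisons listed a member site in 24 genes, 7.64% of the susceptible and 9.76% of the acute genes. The comparisons share their control libraries: at the 4 sites with equal coordinates the control reads were equal in 4. Values are therefore given side by side, with no test of agreement. The direction was the same in 19 genes and opposite in 5, Trpa1, Adcy3, Frmd4a, Zeb2 and Ttc17, and in those 5 the sites lay 6.45 to 280 kb apart. Adcy3 averaged 1.38 ± 2.39 (SD, n = 3) in susceptible mice against 11.4 ± 0.523 (SD, n = 2) in controls at its lower site, and 15.2 ± 1.32 in acute stress mice against 4.13 ± 0.276 in controls (SD, n = 2 each) at its higher site, 10.6 kb away. That acute site missed the counting test (exact p = 0.000161), as did the acute higher site of Ttc17 and 1 of Frmd4a (exact p = 0.000118 each). Zeb2, a zinc finger repressor of neural development, averaged 3.39 ± 1.53 in susceptible mice against 13.7 ± 1.32 in controls at its lower site, and 15.5 ± 0.361 in acute stress mice against 4.02 ± 1.97 in controls 33.9 kb away.

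At 12 positions sites of the comparisons overlapped, 3.65% of the susceptible and 4.76% of the acute sites, and all 12 were lower in both. They were listed under Btaf1, Cacnb2, Itch, Large, Mras, Nek4, Nptn, Sgcd, Tshz3, Vsnl1, 4930440I19Rik and 3110021N24Rik. The last lies in RefSeq's Zfyve9 and missed the counting test in the acute comparison (exact p = 0.000149). At the Large site no RefSeq gene was found in either comparison. Itch, a ubiquitin ligase, had 1.63, 0.83 and 0 in the susceptible libraries, against 11.01 and 10.14 in the control libraries. At the same coordinates (chr2:155169876-155170125) it had 1.90 and 1.43 in the acute stress libraries, against 12.98 and 12.48 in the control libraries. The control values are the same 12 and 19 reads on the scale of each comparison. Mras, a Ras GTPase, had 8.14, 7.45 and 4.40 in the susceptible libraries, against 21.10 and 21.89 in the control libraries, and 4.75 and 1.43 in the acute stress libraries, against 17.30 and 17.08 in the control libraries. At Btaf1 the acute site spans 650 bp and the susceptible one 250 bp within it, so their levels are not on equal lengths.

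**Figure D5:**
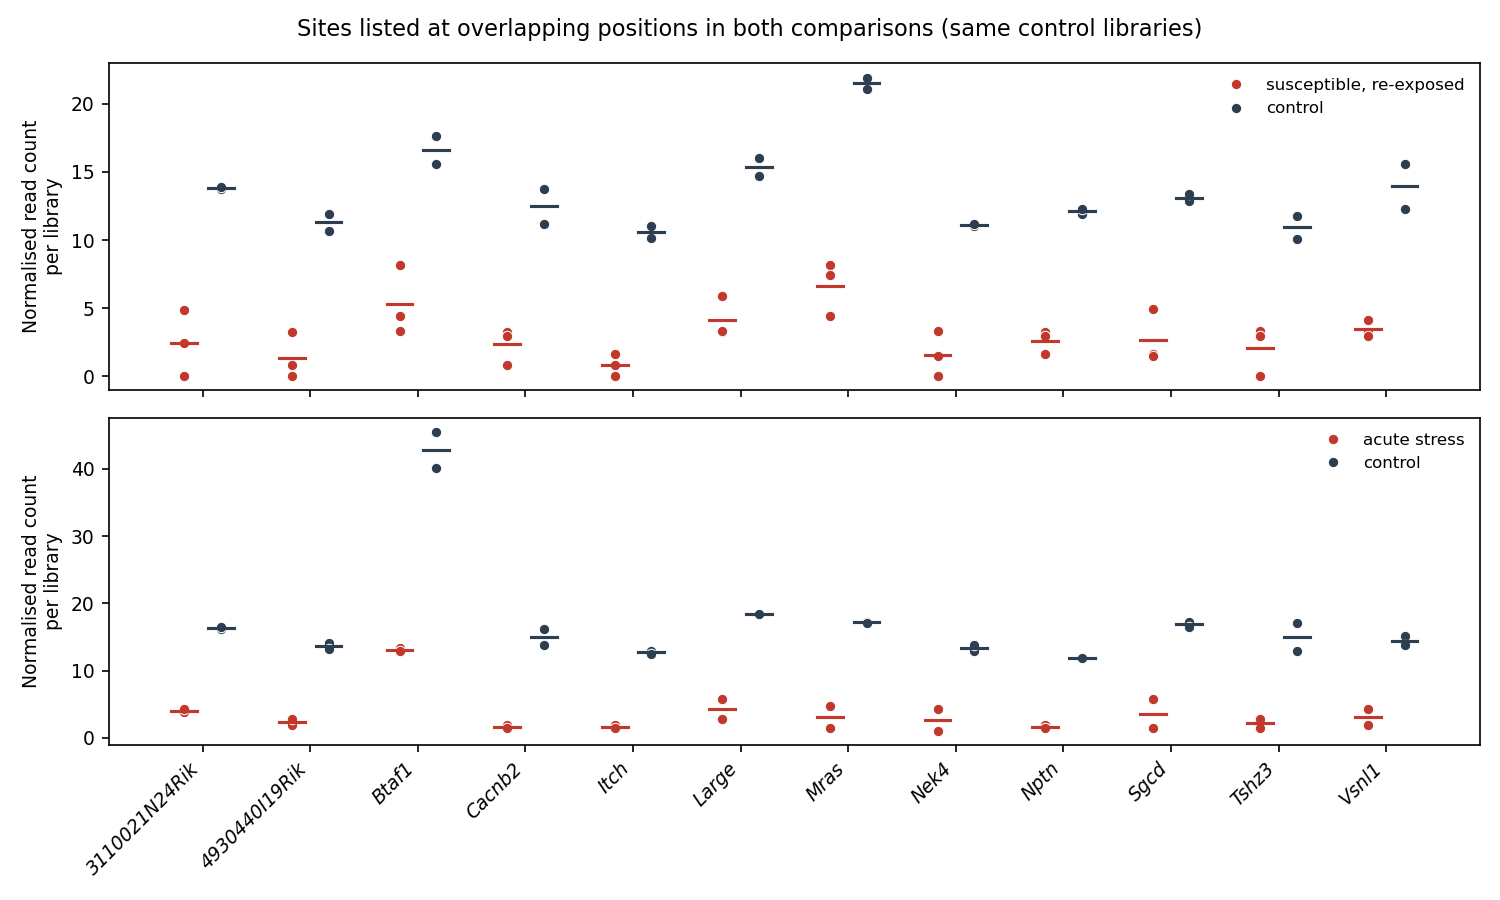
Normalised read count (y axis) of each library at the 12 positions listed in both comparisons, for susceptible re-exposed mice (top) and acute stress (bottom), each left of the control libraries (dark). Points are libraries and lines group means. Both stress groups lie below the shared controls at every position, and the 2 panels differ in scale because Btaf1 reaches 45.42 in the acute comparison.

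The enrichment ratios in the authors' deposited table followed the counts only in part. At the susceptible lower sites the ratio was smaller in susceptible mice than in controls at 232, larger at 66 and equal at 21 of 319. At the susceptible higher sites it was larger in susceptible mice at 3 and smaller at 7 of 10. At the acute lower sites it was smaller in acute stress mice at 72, larger at 22 and equal at 21 of 115, and at the acute higher sites larger at 64, smaller at 44 and equal at 29 of 137. An infinite ratio stood for the controls at 54.9% of susceptible lower and 70.0% of susceptible higher sites, and at 50.4% and 52.6% of acute lower and higher sites. An infinite control ratio makes a larger stress ratio impossible, and it fell on sites of both directions.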

How the data were processed

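H3.3 ChIP-seq was described in 18 libraries (9 ChIP, 9 Input). The submitters' processing notes name Bowtie2 2.2.0, SAMtools 0.1.19 and build mm10. The authors deposited 2 tables of differential sites, holding only sites under a p-value of 0.0001, with 250 bp windows per the file names. Each table gives normalised counts per library and mean coverage signal per group as the authors deposited them, with an enrichment ratio, a log2 fold change, a p-value and an adjusted p-value deposited by the authors. The sources used here do not state the normalisation or the test. The planned count model was not run, because only listed sites and normalised values were deposited; the authors' test was kept.

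Dividing each value by its library's step gave whole reads for 100% of values (tolerance 0.1). Added to this were pooled folds with Clopper-Pearson 95% intervals and a two-sided exact binomial test at 0.0001 given the relative depths. On simulated tables the test recovered 3.0%, 18.5% and 44.5% of 2-, 4- and 8-fold decreases at susceptible depths (1286 sites). Increases were not simulated. At acute depths (1014 sites) it recovered 1.0%, 10.5% and 26.5%, and it called 0 unchanged sites. The simulation drew counting error only and set the control level at the pooled level of both groups. Simulated lower sites thus held fewer control reads than the listed lower sites. A permutation test over libraries cannot go below p = 0.2 (3 against 2) or 0.333 (2 against 2), so none was made. Library totals are unknown and no batch is labelled; the labels call replicates biological.

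Positions were matched to RefSeq (GRCm38.p6). Named sites were the 8 with the smallest p per comparison and direction, genes with several member sites or a site in both tables, genes of 22 lists, and sites next to the bounds. The members and lists were chosen with earlier results of these data known. Some genes with a site are not reported here. Alternatives are given at the end. Python 3.11.15, SciPy 1.17.1 and pandas 2.3.3 were used.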

Additional observations from a re-analysis of the deposited data

How the results depend on the processing

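The susceptible split stayed mostly lower under each alternative run on it, which did not include the scaling to equal medians. For the 173 named sites, 0 of 792 values with 1 library left out reversed. None could, because the libraries of the groups did not overlap at any member. In susceptible mice an upper bound of 50 kb left 207 lower sites, the authors' p under 1e-05 left 71 lower and 3 higher, and at least 40 reads left 184 and 5. In the acute comparison these settings left 73 lower sites, 17 lower and 18 higher, and 64 and 34, a lower share of 65.3%. The exact counting test left 85 acute higher sites and a lower share of 55.5%. Neither it nor the limit of 40 reads treats the directions alike, since the control libraries had more depth. With 1 library left out, the counting test passed 44 to 123 lower and 1 to 5 higher susceptible members (lower share 94.2 to 99.1%) and 3 to 36 lower and 1 to 14 higher acute members (25 to 95.5%); fewer reads were then tested.

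The acute difference in lower share from sites beyond 100 kb, -13.1 percentage points, had an unadjusted p under 0.05 (Fisher exact test). It became -7.8 with an upper bound of 150 kb, -10 with the authors' p under 1e-05, -2.4 with at least 40 reads and -10.3 under the counting test, none of which passed. With 1 library left out it ran from -7.5 to 13.1. The susceptible difference of -0.6 turned to 0.5 with 150 kb and to 1.1 with at least 40 reads, and ran from -4.5 to 8.6 with 1 library left out. The cause was not tested.

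A pseudocount of 1 moved the median log2 fold changes to -1.99 and 1.85 at susceptible lower and higher sites and to -2.17 and 1.89 at acute ones. Scaling to equal medians over the other listed sites gave 0.3 (a reversal) and 4.96 in the susceptible and -3.33 and 1.43 in the acute comparison, since that choice removes whatever most listed sites share. Counted by gene instead of position, 24 genes were common to both comparisons, in place of 12 overlapping positions. Distance from the outermost RefSeq start, chosen after seeing the data, gave 292 lower and 10 higher susceptible and 104 and 129 acute sites.

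No paired analysis was possible because the count cells carry no replicate numbers. Of the 173 named sites, among which Slc36a1 and Ptprb are not counted, 1 susceptible and 15 acute ones missed the counting test. Depth limits all values: a single read is worth 0.534 to 1.63 normalised counts. In simulation most decreases were not recovered, even at 8-fold (44.5% and 26.5% recovered at susceptible and acute depths). The simulated control levels were below those of the listed lower sites, so these rates do not apply to the members.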
